A study of Mus musculus with 9 samples.

Results

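The genes described here are 7 transcription factors of dendritic cells: Irf8, Batf3, Id2, Nfil3, Zbtb46, Bcl6 and Spi1. They were chosen by name, as factors of the development of type 1 conventional dendritic cells (cDC1) or of conventional dendritic cells in general. No measured value entered the rule, but earlier results of these data were known when it was made. All 7 were found among the 53458 genes of the deposited tables, and they hold 27 of the 136176 transcripts that matched the annotation. The data are bulk RNA sequencing of cDC1 from mouse lymph nodes beside the pancreas. The labels sort the 9 libraries by stage of neoplasia into 3 groups of 3, named Healthy, PanIN and Tumor, where PanIN stands for pancreatic intraepithelial neoplasia, a precursor of pancreatic cancer. KPC, in the series title, is a mouse model of pancreatic cancer, and the labels do not say which groups carried its alleles. For none of the 3 groups do the sources used here give the strain, the age or the way the cDC1 were purified, nor do they say whether a library is 1 animal or a pool. The p-values below therefore reflect no more than how these 9 libraries varied, and that variation may be technical.

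Conventional dendritic cells arise from bone marrow precursors under a small set of transcription factors. Irf8 (interferon regulatory factor 8) and Batf3 (a basic leucine zipper protein) act together: Batf3 pairs with Jun proteins, binds composite DNA elements with Irf8, and sustains Irf8 expression in committed cDC1. Nfil3, Id2 and Zeb2 form a circuit ahead of this step, in which Nfil3 represses Zeb2 and Id2 blocks the E proteins that drive plasmacytoid dendritic cells. Spi1 encodes PU.1, an ETS factor of nearly all myeloid cells. Zbtb46 is a zinc finger repressor whose expression separates conventional dendritic cells from other myeloid cells, and Bcl6 is a repressor best known from germinal centre B cells that also acts in cDC1.

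On GRCm38, Irf8 (ENSMUSG00000041515) spans chr8:120736358-120756694 on the plus strand, Batf3 (ENSMUSG00000026630) chr1:191097847-191108945 on the plus strand, and Id2 (ENSMUSG00000020644) chr12:25093799-25097140 on the minus strand. Nfil3 (ENSMUSG00000056749) spans chr13:52967209-52981073 and Bcl6 (ENSMUSG00000022508) chr16:23965052-23988852, both on the minus strand. Zbtb46 (ENSMUSG00000027583, minus strand) spans chr2:181387762-181459426, and Spi1 (ENSMUSG00000002111, plus strand) chr2:91082390-91115756. A predicted gene on the same strand, Gm20388, overlaps Irf8. It stood at 3.52 to 7.38 TPM (a level per length of transcript, scaled to a fixed total), against 187 to 732 TPM for Irf8.

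The transcript results turn on 3 annotated transcripts that hold intron sequence, Irf8-207, Batf3-202 and Id2-203. For the first and the second, the boundary that sets each apart from the spliced transcript of the same gene is shown here. Irf8-207 runs from exon 2 of the 9 exons of Irf8-201 into the next intron, at chr8:120739977-120740006 on the plus strand. Batf3-202 starts in the intron ahead of exon 2 of the 3 exons of Batf3-201, at chr1:191100713-191100742 on the plus strand. Each sequence has 15 bases on either side of the boundary, read 5′ to 3′ from the GRCm38 genome. Capitals mark intron bases, which the spliced transcript lacks.
Irf8-207: gcttccatcttcaagGTAAAGCCTCCTGCG
Irf8-201: gcttccatcttcaaggcctgggcagttttt
Batf3-202: ACATGTCATCCCCAGagccccaaggacgat
Batf3-201: gggaaccagccgcagagccccaaggacgat
The intron bases begin with GT in Irf8-207 and end with AG in Batf3-202, the usual letters of a splice donor and a splice acceptor.

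The libraries held 32150281 to 68934430 estimated counts. Each of 14 cDC1 marker genes was detected in every library, with Xcr1 at 249 to 1081 and Clec9a at 177 to 669 CPM (counts scaled by library size and TMM factors). The sum of the 14 was 5115 to 18450 CPM, against 71.5 to 184 CPM for 10 markers of type 2 conventional dendritic cells, 244 to 393 for 10 of plasmacytoid dendritic cells and 200 to 861 for 12 of B cells. For 10 markers of T cells it was 117 to 648 CPM, and for 8 epithelial markers 8.69 to 119 CPM. Healthy 2 and Healthy 3 stood apart from the other libraries. Healthy 2 had the highest cDC1 sum and the lowest sum of 18 maturation markers, at 1438 CPM against 4602 to 17910 CPM in the others. Of all 24133 genes tested, 21.7% had their lowest CPM in Healthy 3 and 31% their highest. Healthy 1, PanIN 1 and Tumor 1 share a code at the start of their titles, whose meaning the labels do not give. In bulk libraries, fewer cells of a type and less RNA per cell cannot be told apart.

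In level per length, Id2 and Irf8 led the 7 genes, with means over the 9 libraries of 438.9 and 409.8 TPM. Spi1 followed at 152.6 TPM, Batf3 at 92.7, Zbtb46 at 21.2, Bcl6 at 20.3 and Nfil3 at 4.14 TPM. The order held in 9 of 9 libraries except between 2 pairs of neighbours: Id2 was above Irf8 in 5 of 9 libraries, and Zbtb46 above Bcl6 in 5 of 9. Among the 24133 genes tested, Irf8 ranked at percentile 98.1 to 99.2 of TPM depending on the library, Id2 at 98.2 to 99.1, Spi1 at 96.8 to 97.7 and Batf3 at 93.9 to 97. Zbtb46 and Bcl6 ranked between 75.3 and 88.5, and Nfil3 between 53.5 and 75.7. Within a gene, levels varied from 2.42-fold (Spi1) to 3.86-fold (Nfil3) between the lowest and the highest library in CPM.

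**Figure D1:**
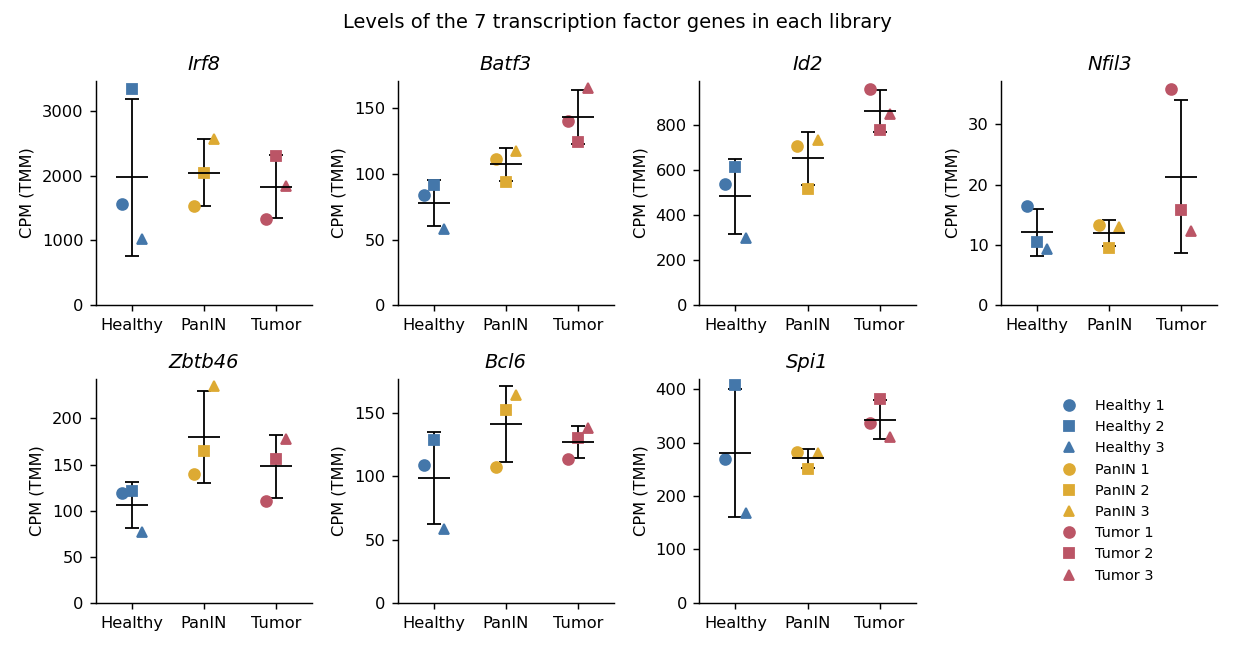
Level of each of the 7 genes in CPM with TMM factors (vertical axis, from 0) in the 3 libraries of each stage. Points are libraries, and horizontal bars give the mean and SD of each stage. Batf3 stands at 58.3 to 91.6 CPM in Healthy, 93.5 to 117 in PanIN and 125 to 165 in Tumor, and Irf8 is spread most widely in Healthy, from 1025 to 3330.

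Irf8, the factor that fixes cDC1 identity, stood at 1558, 3330 and 1025 CPM in Healthy 1 to 3, at 1525, 2038 and 2565 in PanIN 1 to 3 and at 1335, 2309 and 1832 in Tumor 1 to 3. The stages overlapped, and the Healthy libraries alone covered the whole range. The Healthy mean was 1971 ± 1206 CPM, the PanIN mean 2043 ± 520 and the Tumor mean 1825 ± 487 (SD, n = 3 each).

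Batf3, the partner of Irf8, was lowest in Healthy and highest in Tumor. Its CPM was 84.3, 91.6 and 58.3 in the Healthy libraries, 111, 93.5 and 117 in the PanIN libraries and 140, 125 and 165 in the Tumor libraries, with means of 78.1 ± 17.5, 107 ± 12.3 and 143 ± 20.7 (SD, n = 3 each). No library of one stage overlapped another stage. On the TPM scale PanIN and Tumor overlapped (91.4 to 134.5 and 84.6 to 149 TPM), and both lay above Healthy (46.1 to 72.1 TPM).

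Id2, the inhibitor of E proteins, had the same order of means. It stood at 540, 611 and 297 CPM in the Healthy libraries, 705, 516 and 735 in the PanIN libraries and 961, 777 and 849 in the Tumor libraries, with means of 483 ± 165, 652 ± 119 and 862 ± 93.1 CPM (SD, n = 3 each). The 3 Tumor libraries lay above all others, and PanIN 2 lay within the Healthy range. On the TPM scale, by contrast, PanIN lay above Healthy (419 to 607 against 181 to 349 TPM) and overlapped Tumor (435 to 603 TPM).

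Nfil3, which acts ahead of Id2 in the cDC1 circuit, was the scarcest of the 7. Its CPM was 16.5, 10.5 and 9.27 in the Healthy libraries, 13.3, 9.45 and 13.0 in the PanIN libraries and 35.8, 15.7 and 12.3 in the Tumor libraries. The Tumor mean of 21.3 ± 12.7 CPM (SD, n = 3) rested on Tumor 1, and the other 2 Tumor libraries lay within the Healthy range. Tumor 1 also had the highest sums of epithelial markers (119 CPM) and of T cell markers (648 CPM) of all libraries. The part of these cells in the Nfil3 level was not tested.

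Zbtb46 was the factor whose level in PanIN stood out most. It was at 119, 121 and 77.0 CPM in the Healthy libraries, 140, 165 and 235 in the PanIN libraries and 110, 156 and 178 in the Tumor libraries, with means of 106 ± 24.9, 180 ± 49.4 and 148 ± 34.4 CPM (SD, n = 3 each). All PanIN libraries lay above all Healthy ones, and Tumor overlapped both.

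Bcl6 stood at 109, 129 and 58.6 CPM in the Healthy libraries, 108, 153 and 164 in the PanIN libraries and 113, 130 and 138 in the Tumor libraries. The stages overlapped, with means of 98.5 ± 36.0, 141 ± 29.9 and 127 ± 12.6 CPM (SD, n = 3 each). On the TPM scale the PanIN libraries (18.5 to 32.7) lay just above the Healthy ones (8.78 to 18.1).

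Spi1 stood at 269, 407 and 169 CPM in the Healthy libraries, 282, 250 and 280 in the PanIN libraries and 337, 382 and 311 in the Tumor libraries. Tumor lay above PanIN, and Healthy spanned both. The Healthy mean was 281.5 ± 120 CPM, the PanIN mean 271 ± 17.97 and the Tumor mean 343 ± 36.2 (SD, n = 3 each), and on the TPM scale all 3 stages overlapped.

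Every one of the 7 genes had its lowest level of the 9 libraries in Healthy 3, in CPM and in TPM. Over all genes tested, 21.7% had their lowest CPM there and 20.9% their lowest TPM. The highest CPM was in Healthy 2 for Irf8 and Spi1, in PanIN 3 for Zbtb46 and Bcl6, in Tumor 1 for Id2 and Nfil3, and in Tumor 3 for Batf3. Healthy 3 also held the highest CPM of 31% of all genes, and Healthy 2 the lowest of 22.7%. Each Healthy mean of the 7 genes, and so each difference from Healthy, includes Healthy 3.

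The comparison of PanIN with Healthy asks how cDC1 differ in nodes beside a pancreas with precursor lesions. The log2 fold change was positive for 5 of the 7 genes, and the quasi-likelihood test of edgeR, with p-values adjusted by Benjamini-Hochberg over all 24133 genes, called 0 of 7, beside 0% of all genes. Zbtb46 had the largest difference, 0.77 on the log2 scale (1.70-fold, SE 0.28, adjusted p = 0.457 by edgeR). Bcl6 had 0.52 (SE 0.29), Batf3 0.46 (SE 0.23), Id2 0.43 (SE 0.30), Irf8 0.05 (SE 0.42), Nfil3 -0.02 (SE 0.39) and Spi1 -0.06 (SE 0.29), with adjusted p from 0.512 to 0.994. At an unadjusted p under 0.05 there were 2527 genes, or 10.5% of those tested, and 1 of the 7. The libraries of the 2 stages did not overlap, with PanIN higher, for 2 of the 7 genes (Batf3 and Zbtb46) and for 7.4% of all genes. The median log2 fold change was 0.43 over the 7 genes and -0.10 over all genes tested.

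These differences shifted with single libraries of either stage and with the scale. Without Healthy 3 the log2 fold changes were 0.59 for Zbtb46, 0.27 for Bcl6, 0.31 for Batf3, 0.20 for Id2 and -0.23 for Irf8, and without Healthy 2 they were 0.88, 0.76, 0.59, 0.64 and 0.66. Without PanIN 3, the library with the highest Zbtb46, they were 0.53, 0.40, 0.39, 0.34 and -0.14. None of these passed, and DESeq2, which called 186 genes in this comparison (0.774%), called none of the 7. Within the shared title code, with 1 library a stage, PanIN less Healthy was 0.23 on the log2 CPM scale for Zbtb46 and -0.01 for Bcl6. In the other 6 libraries it was 1.03 and 0.87. On log2(TPM + 1) all 7 genes were higher in PanIN, with a median of 0.83 against 0.11 over all genes, and limma-trend called none of the 7. Markers of other cells also had positive values in this comparison. The log2 fold change was positive for 12 of 12 B cell markers, whose sum stood at 200 to 536 CPM in Healthy. In PanIN 1 to 3 it stood at 277, 861 and 334 CPM, so PanIN 2 alone lay above the Healthy range. It was positive too for 6 of 6 tested neutrophil markers, with sums of 1.16 to 1.81 CPM in Healthy and 1.21 to 43.5 in PanIN (Elane at 0 in every library). The 8 plasma cell markers had 8 positive values, with sums of 108 to 158 CPM in Healthy and 159 to 226 in PanIN, and 8 epithelial markers summed to 8.69 to 11.3 and 11.6 to 16.4 CPM. Of 18 maturation markers, 17 had positive values (0 called by edgeR). Their sums overlapped, at 1438 to 9207 CPM in Healthy and 4991 to 10870 in PanIN. The part of maturation and of these other cells in the differences of the 7 genes was not tested.

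The comparison of Tumor with Healthy asks the same of nodes beside a tumor. The largest differences among the 7 belonged to Batf3 and Id2, which stood higher in all 3 Tumor libraries than in any Healthy one. Batf3 differed by 0.88 on the log2 scale (1.84-fold, SE 0.23, adjusted p = 0.168 by edgeR) and Id2 by 0.84 (1.79-fold, SE 0.30, adjusted p = 0.187). Neither passed the threshold, and edgeR called 0 of the 7 genes beside 0.0249% of all genes (6 of 24133). At an unadjusted p under 0.05 there were 4292 genes, or 17.8%, and 2 of the 7. The count without overlap, with Tumor higher, was 2 of 7 against 9.02% of all genes.

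The other 5 genes had larger adjusted p. Nfil3 differed by 0.82 (SE 0.40), Zbtb46 by 0.49 (SE 0.28), Bcl6 by 0.37 (SE 0.29), Spi1 by 0.29 (SE 0.30) and Irf8 by -0.11 (SE 0.42) on the log2 scale, with adjusted p from 0.31 to 0.932 by edgeR. The median of the 7 was 0.49 against -0.11 over all genes. Batf3 had the smallest error and the smallest p of the 7, and the difference in Irf8 was smaller than its own error.

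**Figure D2:**
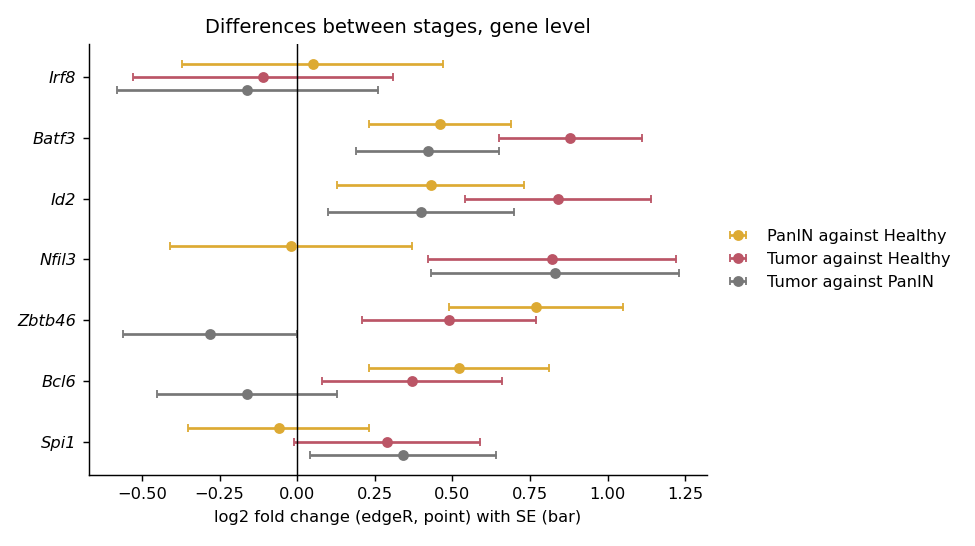
Log2 fold change by edgeR (horizontal axis) of each of the 7 genes for PanIN against Healthy, Tumor against Healthy and Tumor against PanIN. Points are estimates and bars their SE. For Batf3 and Id2 the estimates for Tumor against Healthy, 0.88 and 0.84, are the largest of their 3 comparisons, while the bars of Irf8 span 0 in each.

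Whether Batf3 and Id2 were called depended on the test and on Healthy 2. For Batf3 the adjusted p was 0.0288 by DESeq2, 0.0493 by edgeR with no filter on low counts and 0.0215 by edgeR without Healthy 2, and for Id2 it was 0.044 without Healthy 2. Without Healthy 3, the library lowest in both genes, the log2 fold change was 0.72 for Batf3 and 0.60 for Id2. The adjusted p by edgeR was then 0.368 and 0.449. Over all settings tried, the log2 fold change stayed between 0.68 and 1.01 for Batf3 (adjusted p from 0.0215 to 0.39) and between 0.60 and 1.05 for Id2 (0.044 to 0.449). DESeq2 called 1496 genes in this comparison (6.35%), edgeR without Healthy 2 called 2177 (8.51%), and edgeR with no filter 1041 (2.82%). Within the shared title code the difference on the log2 CPM scale was 0.73 for Batf3 and 0.83 for Id2, and in the other 6 libraries it was 0.97 and 0.93. Markers of maturation pointed in the same direction: 18 of 18 had positive log2 fold changes (0 called by edgeR, 11 at an unadjusted p under 0.05), and their sum stood at 1438 to 9207 CPM in Healthy and 9701 to 17910 in Tumor. No maturation marker was at 0 in any stage, and the part of maturation in the Batf3 and Id2 differences was not tested. The 8 plasma cell markers, which include Irf4, also had 8 positive values (0 called by edgeR) and none at 0 in every library. They summed to 164 to 391 CPM in Tumor, above the 108 to 158 of Healthy, and their part was not tested either. Epithelial markers were positive for 7 of 7 tested (0 called by edgeR). Their sum was 119 CPM in Tumor 1 and 8.69 to 11.4 CPM in the other Tumor libraries and in Healthy, and their part was not tested.

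Tumor and PanIN were compared to see whether the factors differ between precursor and cancer. Batf3 differed by 0.42 (SE 0.23), Id2 by 0.40 (SE 0.30), Nfil3 by 0.83 (SE 0.40) and Spi1 by 0.34 (SE 0.30) on the log2 scale, while Zbtb46 (-0.28, SE 0.28), Irf8 (-0.16, SE 0.42) and Bcl6 (-0.16, SE 0.29) had negative values. The adjusted p was 1.0 for each of the 7 by edgeR, and 0 of 7 were called beside 0.0124% of all genes. At an unadjusted p under 0.05 there were 1095 genes (4.54%) and none of the 7, and DESeq2 called 0.125% of all genes and none of the 7. Batf3, Id2 and Spi1 did not overlap, with Tumor higher in CPM (3 of 7, against 8.33% of all genes). On log2(TPM + 1) these 3 differences were 0.01, 0.04 and -0.17, so they held on 1 scale and not on the other. A joint test of any difference among the 3 stages called 0 of 7, beside 0.0207% of all genes, and its smallest adjusted p among the 7 was 0.295, for Batf3.

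In 6 of the 7 genes, Spi1 being the exception, the same transcript had the largest share in every library. Irf8-201 held 75.8% to 95.0% of the summed TPM of Irf8, Id2-201 89.7% to 99.1% of Id2, Bcl6-201 93.8% to 98.9% of Bcl6 and Batf3-201 44.4% to 71.0% of Batf3, and Nfil3-201 is the only annotated transcript of Nfil3. Zbtb46 was divided between Zbtb46-201 (49.9% to 64.8%), whose coding sequence has 1800 bases, and Zbtb46-202 (28.2% to 46.1%), with 1302. In Spi1, Spi1-201 (31.9% to 44.0%) and the short transcript Spi1-204 (33.8% to 47.5%) took similar shares of TPM, and Spi1-202 (8.70% to 17.2%) and Spi1-203 (6.16% to 17.8%) the rest. Counted without regard to length, Spi1-201 stood at 138 to 334 CPM and Spi1-204 at 26.4 to 71.9. The remaining transcripts with at least 10% of a gene in a stage were Batf3-202 (6.90% to 32.7%) and Batf3-205 (5.12% to 18.6%).

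**Figure D3:**
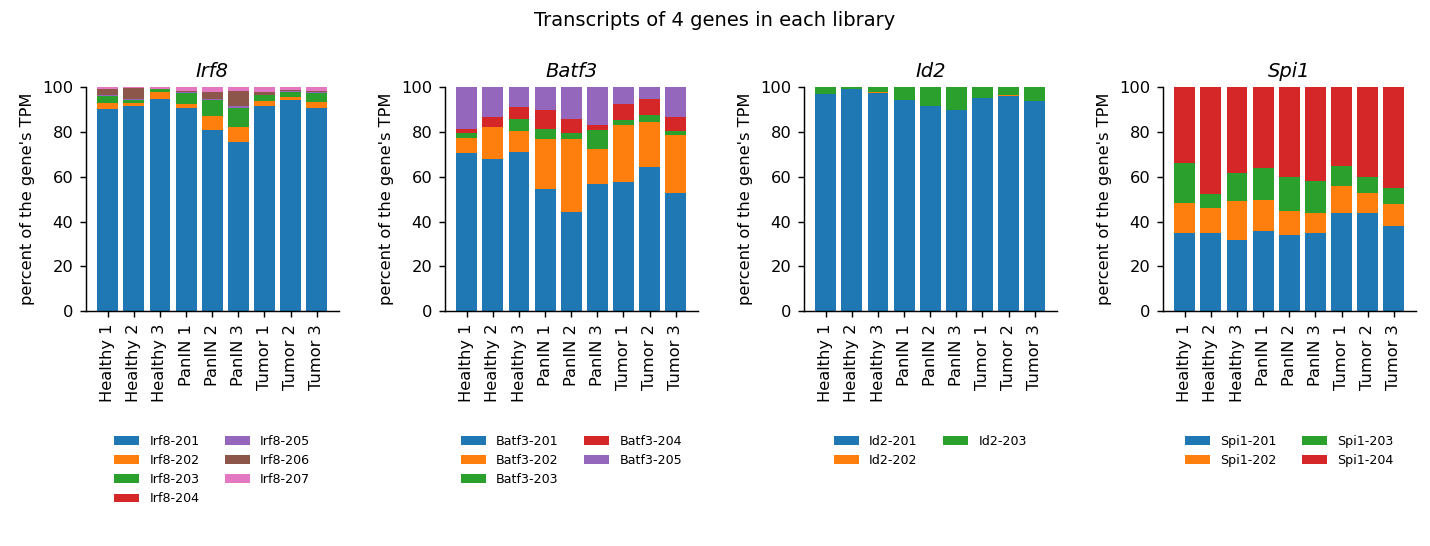
Share of each annotated transcript in the summed TPM of its gene (vertical axis, percent, bars stacked to 100) in the 9 libraries, for Irf8, Batf3, Id2 and Spi1. The band of Batf3-202 takes 6.90% to 14.4% in Healthy and 15.6% to 32.7% in PanIN and Tumor.

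Batf3-202, which is annotated as a retained intron and has no coding sequence, took a larger share of Batf3 in the PanIN and Tumor libraries. It held 6.90%, 14.4% and 9.57% of Batf3 TPM in the Healthy libraries, 22.6%, 32.7% and 15.6% in the PanIN libraries and 25.7%, 20.0% and 25.9% in the Tumor libraries. Every PanIN and Tumor library lay above every Healthy one, and the share of the coding transcript Batf3-201 lay below (44.4% to 64.4% against 67.9% to 71.0%). In CPM, Batf3-202 stood at 6.20, 12.9 and 6.32 in the Healthy libraries, 24.6, 29.2 and 20.0 in the PanIN libraries and 34.5, 22.7 and 42.9 in the Tumor libraries. Its log2 fold change was 1.53 (SE 0.39, adjusted p = 0.605) for PanIN and 1.97 (SE 0.40, adjusted p = 0.137) for Tumor against Healthy, by edgeR with adjustment over 66598 transcripts. Batf3-201 had -0.01 and 0.52 in the same comparisons (SE 0.25 in each). With the transcripts annotated as retained introns left out of the gene sums, a setting chosen after the data were seen, Batf3 differed by 0.26 in PanIN and 0.68 in Tumor, in place of 0.46 and 0.88.

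Irf8-207 and Id2-203 were likewise lowest in the Healthy libraries and are described because their values were seen to differ. Irf8-207, of whose 3469 bases 3243 lie in introns of Irf8-201, stood at 13.8, 12.0 and 7.71 CPM in the Healthy libraries, 28.6, 55.1 and 57.7 in the PanIN libraries and 36.3, 38.8 and 36.9 in the Tumor libraries. The fold change on the log2 scale was 2.08 (SE 0.34, adjusted p = 0.224) for PanIN and 1.74 (SE 0.34, adjusted p = 0.125) for Tumor against Healthy by edgeR. The coding transcript Irf8-201 had -0.11 and -0.19 (SE 0.42 in each), at 1069 to 3419 CPM over all libraries.

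Id2-203 is annotated as coding, and 469 of its 958 bases lie in introns of Id2-201. It stood at 13.3, 3.97 and 5.79 CPM in the Healthy libraries, 34.0, 35.9 and 58.9 in the PanIN libraries and 37.2, 22.8 and 41.9 in the Tumor libraries. The log2 fold changes were 2.49 (SE 0.50, adjusted p = 0.397) and 2.15 (SE 0.49, adjusted p = 0.201) by edgeR, where Id2-201 had 0.26 and 0.74 (SE 0.28 in each). By DESeq2 the adjusted p for PanIN and Tumor was 8.23e-05 and 0.00119 for Irf8-207, 0.00164 and 0.00588 for Id2-203, and 0.00202 for Batf3-202 in Tumor. These are 5 calls on 3 transcripts, where DESeq2 called 2.55% of all transcripts for PanIN and 6.87% for Tumor against Healthy. For Tumor against PanIN it called 2.22% of all transcripts and none of these genes'.

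Relative to the spliced transcript of the same gene, Irf8-207, Batf3-202 and Id2-203 were higher in every PanIN and Tumor library than in any Healthy one. Irf8-207 and Id2-203 had been picked for such values, so their order is no separate result. In CPM, 9.5% of all transcripts lay wholly higher in PanIN than in Healthy, and 9.43% in Tumor. The share among ratios was not computed. The TPM of Irf8-207 was 0.298% to 0.752% of Irf8-201 in Healthy, 1.61% to 2.53% in PanIN and 1.41% to 2.30% in Tumor. For Id2-203 over Id2-201 it was 0.735% to 2.98%, 5.99% to 11.2% and 3.601% to 6.27%, and for Batf3-202 over Batf3-201 it was 9.80% to 21.2%, 27.6% to 73.6% and 31.1% to 49.0%. The other 3 transcripts of these genes that are annotated as retained introns did not share this order: Bcl6-202 over Bcl6-201 lay above Healthy in PanIN only (3.14% to 6.67% against 1.14% to 2.95%), and Irf8-202 and Zbtb46-203 overlapped between all stages. Further transcripts of the genes also hold intron bases. By share of the gene's TPM, Irf8-203 and Irf8-205 lay above Healthy in PanIN only, and Batf3-204 in Tumor only. Batf3-203, Zbtb46-202, Zbtb46-204 and Spi1-203 overlapped with Healthy in both stages.

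**Figure D4:**
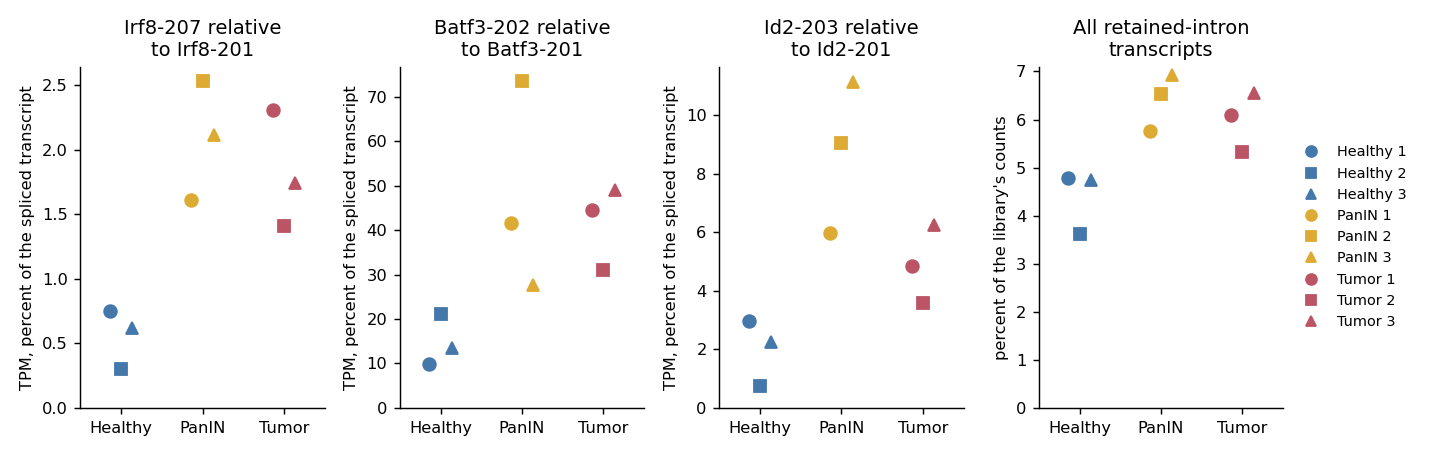
TPM of 3 intron-holding transcripts as a percent of the TPM of the spliced transcript of the same gene, and, in the right panel, the percent of each library's counts in all transcripts annotated as retained introns (vertical axes, from 0). Points are libraries. In each panel the 3 Healthy libraries lie below the 6 others.

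Whole libraries differed in the same direction. Transcripts annotated as retained introns held 4.79%, 3.61% and 4.74% of the counts of the Healthy libraries, 5.76%, 6.53% and 6.94% of PanIN and 6.09%, 5.32% and 6.56% of Tumor, with every Healthy library below the 6 others, as for the 3 transcripts. The median log2 fold change of the 14863 retained-intron transcripts tested was 0.46 in PanIN and 0.14 in Tumor against Healthy, where the median of all transcripts was -0.10 and -0.19. The 5 retained-intron transcripts of the 7 genes and Id2-203, which is annotated as coding and was added after its values were seen, had medians of 1.66 and 1.31, and for Tumor against PanIN -0.34, against -0.31 for all retained-intron transcripts. Estimated counts do not tell reads of these annotated transcripts from reads of unspliced RNA of the same genes, and the part of library makeup in the 3 ratios was not tested. Within the shared title code, the log2 CPM difference for PanIN and Tumor against Healthy was 1.05 and 1.40 for Irf8-207, 1.99 and 2.47 for Batf3-202, and 1.36 and 1.49 for Id2-203. In the other 6 libraries it was 2.55 and 1.97, 1.42 and 1.79, and 3.26 and 2.69.

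Of the 27 transcripts, 24 passed the filter on low counts. Irf8-204 was at 0 in every library, and Zbtb46-204 and Zbtb46-205 stood at most at 0.559 and 5.12 CPM, the latter in Healthy 2 alone. By edgeR 0 of the 24 were called for PanIN against Healthy, beside 0.0045% of all 66598 transcripts, 0 for Tumor against Healthy, beside 0.189%, 0 in Tumor against PanIN beside 0.036%, and 0 in the joint test beside 0.00901%. At an unadjusted p under 0.05 there were 7 of the 24 for PanIN against Healthy, beside 6.82% of all transcripts, 6 for Tumor against Healthy, beside 12.9%, and 3 for Tumor against PanIN, beside 6.04%. The libraries did not overlap, with PanIN above Healthy, for 7 of the 24 and 9.5% of all transcripts, and with Tumor above Healthy for 8 of the 24 and 9.43%.

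The 7 genes did not vary as 1 block over the libraries. Pearson's r of log2 CPM was positive for 19 of the 21 pairs and ran from -0.24 (Irf8 and Nfil3) to 0.95 (Batf3 and Id2). Over 42 relations tested by an exact permutation test over all pairings of the 9 libraries, two-sided and with Benjamini-Hochberg adjustment, 3 had an adjusted p under 0.05. If libraries shared a pool or a mouse these p-values would be too small, and the libraries also share depth and scaling. The pairings ignored stage, so the p-values also take in any difference between stages that both sides of a relation share. Genes outside the 7 reached higher r with each factor, as given further below.

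Batf3 and Id2 had r = 0.95 and rho = 0.93 (exact permutation p = 0.000187 and 0.00075, adjusted 0.00394 and 0.0157). Without the 2 libraries farthest from the median of Id2, Healthy 3 and PanIN 2, r was 0.92, and it was 0.96 among the 6 libraries that lack the shared title code. Zbtb46 and Bcl6 had r = 0.89 and rho = 0.87 (exact permutation p = 0.00075 and 0.00451, adjusted 0.0105 and 0.0631), with 0.71 without Healthy 3 and PanIN 3 and 0.92 among the 6. Over the 9 libraries Irf8 was close to neither member of the first pair, at r = 0.29 with Batf3 and 0.37 with Id2 (adjusted exact permutation p = 0.668 and 0.546). These values depended on the libraries used. Among the 6 they were 0.48 and 0.69. With Batf3 r was -0.27 without Healthy 3 and Tumor 3, and with Id2 -0.31 without Healthy 3 and PanIN 2.

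Of the 7 genes, Irf8 followed the cDC1 markers most closely. Against the mean log2 CPM of the 14 markers it had r = 0.99 and rho = 0.98 (exact permutation p = 5.51e-06 and 4.96e-05, adjusted 0.000231 and 0.00208), 1.0 without Healthy 2 and Healthy 3, and 0.99 among the 6 libraries. With the same markers r was 0.69 for Bcl6, 0.65 for Spi1, 0.58 for Zbtb46, 0.29 for Id2, 0.22 for Batf3 and -0.31 for Nfil3. None of these passed (adjusted exact permutation p from 0.205 to 0.754). Among the 6 libraries they ran from 0.41 (Nfil3) to 0.87 (Spi1), with 0.42 for Batf3 and 0.66 for Id2. With the mean of the 18 maturation markers, Irf8 had r = -0.51, Batf3 0.58, Nfil3 0.58 and Id2 0.48, none of which passed (adjusted exact permutation p from 0.25 to 0.366). Without Healthy 2 and Tumor 1, r was 0.27 for Irf8, 0.79 for Batf3, 0.39 for Nfil3 and 0.73 for Id2. The negative value of Irf8 thus rested on these 2 libraries. With the B cell markers, r ran from -0.16 for Spi1 to 0.32 for Bcl6, the germinal centre factor, and none of the 7 passed (adjusted exact permutation p from 0.518 to 0.981).

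**Figure D5:**
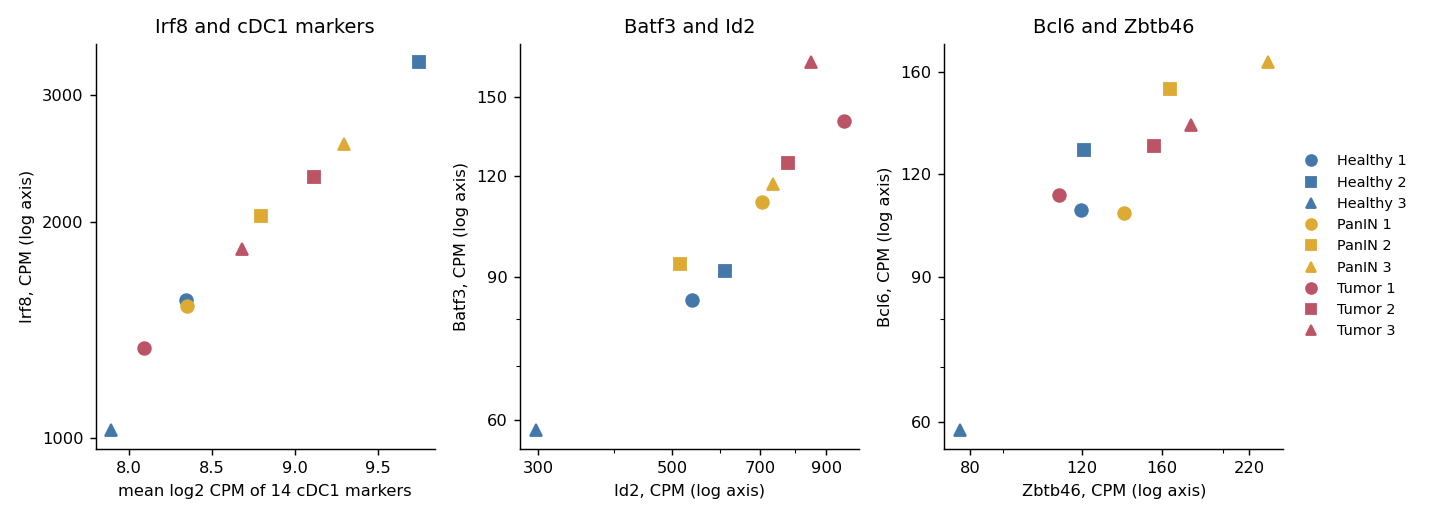
Each point is a library, coloured by stage: Irf8 in CPM against the mean log2 CPM of 14 cDC1 markers, Batf3 against Id2, and Bcl6 against Zbtb46 (CPM axes are logarithmic). Irf8 follows the markers from Healthy 3 to Healthy 2 with stages mixed (r = 0.99), whereas Batf3 and Id2 are highest in the 3 Tumor libraries (r = 0.95).

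The ratio of Batf3 to Irf8 in CPM put the 2 patterns side by side, as 0.0541, 0.0275 and 0.0568 in the Healthy libraries, 0.073, 0.0459 and 0.0457 in the PanIN libraries and 0.105, 0.0539 and 0.0903 in the Tumor libraries. The stages overlapped, since Tumor 2 lay within the Healthy range. Irf8 over Id2 in TPM was 0.92, 1.66 and 1.03 in Healthy and 0.432, 0.908 and 0.655 in Tumor, without overlap, and PanIN (0.669 to 1.26) overlapped both. In CPM, Healthy and Tumor did overlap: Id2 over Irf8 was 0.1835 to 0.346 in Healthy and 0.336 to 0.72 in Tumor. The separation thus held on the TPM scale only.

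The genes whose log2 CPM followed each factor most closely over the 9 libraries, out of 9382 protein-coding genes with a mean log2 CPM of at least 3, are given as a description. For Irf8 they were Actl6a (r = 0.998), the integrin chain gene Itgb2 (0.997) and Plekho2 (0.993). Batf3 was followed by Slc33a1 (0.980), Dcaf15 (0.980) and Nrbp1 (0.979), and Id2 by Smndc1 (0.980), Hyls1 (0.979) and again Dcaf15 (0.979). For Zbtb46 they were the inflammasome sensor gene Nlrp1b (0.988), Patl1 (0.971) and Taf4 (0.970), and for Bcl6 the Polycomb gene Eed (0.984), Trim26 (0.981) and Fnbp1 (0.978). Spi1 had Mcrs1 (0.986), Jpt1 (0.985) and Etfa (0.981), and Nfil3, whose variation rested on Tumor 1, had Ap5s1 (0.964), Thap12 (0.922) and Mpv17l2 (0.909).

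Among 26 other lineage factors of dendritic and myeloid cells, edgeR called 0 in each comparison. DESeq2 called 2, Irf4 and Cebpa, both in Tumor against Healthy, beside 6.35% of all genes. With no filter on low counts edgeR called the same 2 genes there, beside 2.82% of all genes. Without Healthy 2 it called Zeb2 alone, beside 8.51%. At an unadjusted p under 0.05 there were 0 higher and 1 lower for PanIN against Healthy, 5 and 3 for Tumor against Healthy, and 0 and 1 for Tumor against PanIN, beside 10.5%, 17.8% and 4.54% of all genes in either direction. The list had median log2 fold changes of 0.19, 0.16 and -0.06. Zeb2, the target of Nfil3 repression and a factor of plasmacytoid and type 2 cells, stood at 29.0, 15.4 and 59.95 CPM in the Healthy libraries, 22.8, 17.5 and 11.4 in the PanIN libraries and 16.0, 14.8 and 15.6 in the Tumor libraries. Its log2 fold change was -1.01 (SE 0.42, adjusted p = 0.458) in PanIN and -1.17 (SE 0.42, adjusted p = 0.184) in Tumor by edgeR. Healthy 3, lowest in all 7 factors, was highest in Zeb2, and the Healthy mean of Zeb2 rested on it.

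Irf4, the relative of Irf8 that marks type 2 and mature dendritic cells, stood at 12.6, 4.67 and 15.7 CPM in the Healthy libraries, 23.5, 23.9 and 6.45 in the PanIN libraries and 50.6, 23.5 and 31.97 in the Tumor libraries. The Tumor libraries lay above the Healthy ones, and edgeR put the difference at 1.69 on the log2 scale (SE 0.53, adjusted p = 0.168). Per length, Irf8 stayed above Irf4 in every library, by 41.6-fold (Tumor 1) to 1090-fold (Healthy 2) in TPM. Relb, an NF-kB subunit of mature dendritic cells, had 1.23 (SE 0.48, adjusted p = 0.216) in Tumor against Healthy, at 103 to 505 against 464 to 796 CPM. Cebpa, a factor of granulocyte and monocyte precursors, had -1.22 (SE 0.37, adjusted p = 0.168), at 16.2 to 51.8 against 10.5 to 14.9 CPM, without overlap. The 12 markers of monocytes and macrophages summed to 176 to 310 CPM in Healthy and 89.9 to 158 in Tumor, also without overlap, with negative log2 fold changes for 10 of 12 (0 called by edgeR) and none at 0 in every library. Their part in the Cebpa and Zeb2 differences was not tested.

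Other named factors of the list did not pass either. In Tumor against Healthy the signal transducer Stat5a had 0.70 (SE 0.24, adjusted p = 0.174), Cbfa2t3, a corepressor, 0.69 (SE 0.28, adjusted p = 0.222), the E protein gene Tcf12 -0.58 (SE 0.22, adjusted p = 0.195) and Notch2 -0.87 (SE 0.40, adjusted p = 0.286). The last of these stood at 537 CPM in Healthy 2 and at 140 to 217 in the 3 Tumor libraries and the other 2 Healthy ones. Tcf4, the E protein that drives plasmacytoid dendritic cells and is held back by Id2, had -0.60 (SE 0.28, adjusted p = 0.284), and Klf4, a factor of type 2 cells and monocytes, 0.50 (SE 0.47, adjusted p = 0.646).

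Of 10 partners of Batf3 and Irf8 on composite elements, which include Irf4 and Spi1 themselves, edgeR called 0 in each comparison. DESeq2 called 1, Irf4 in Tumor against Healthy, as edgeR did with no filter on low counts, beside 6.35% and 2.82% of all genes. Without Healthy 2, edgeR called 2 in Tumor against Healthy, Batf and Fosl2, beside 8.51% of all genes. With all libraries, 3 of the 10 were higher in that comparison at an unadjusted p under 0.05, beside 17.8% of all genes in either direction: Irf4, Batf (0.90, SE 0.30, adjusted p = 0.17) and Spib (1.32, SE 0.52, adjusted p = 0.222). Batf, which can stand in for Batf3 at these elements, was at 9.07 to 16.3 CPM in Healthy and 20.2 to 27.2 in Tumor, without overlap. Spib, an ETS factor related to PU.1 and a plasmacytoid marker, was at 10.5 to 57.6 and 58.3 to 140 CPM. The list median was -0.06 in PanIN and 0.09 in Tumor, and no AP-1 partner other than Batf had an unadjusted p under 0.05. The AP-1 gene Fosl2 had -0.76 (SE 0.37, adjusted p = 0.304) by edgeR.

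Of 12 genes that act with Bcl6 in repression or are its targets, edgeR and DESeq2 called 0 in each comparison. In Tumor against Healthy, edgeR without Healthy 2 called 2, Gps2 and Hdac4, beside 8.51% of all genes. Gps2, a corepressor subunit, had 0.69 (SE 0.22, adjusted p = 0.168) in Tumor against Healthy, at 26.2 to 41.1 against 53.8 to 63.6 CPM. The histone deacetylase gene Hdac4 had -0.78 (SE 0.26, adjusted p = 0.17) by edgeR in the same comparison. In Tumor against PanIN, Bach2, a repressor of B and T cells, had -1.0 (SE 0.44) and Hdac7 -0.54 (SE 0.24), both at an adjusted p of 1.0. Prdm1, a target of Bcl6 repression, was at 0.735 to 5.42 CPM over all libraries.

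RefSeq promoter windows of 300 bases around the start (GRCm38.p6) were found for 6 of the 7 genes, in 8 windows, and searched on both strands for GAAANNGAA (IRF), GAGGAAGT (PU.1), TGANTCA (AP-1), TTATGTAA (NFIL3) and TTCCTAGAA (BCL6). The only match was 1 AP-1 motif in the Zbtb46 window at chr2:181424339-181424638, which holds the start of Zbtb46-205. Of all 32851 windows, 7.81% hold that motif, and the other 4 are held by 8.56%, 3.2%, 0.938% and 0.411%, in the order given. These are matches of letters in 1 short window per start and say nothing of binding.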

How the data were processed

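RNA of cDC1 was measured in 9 libraries, grouped by the stage in the labels, with a directional kit per the labels' protocols. The deposited tables hold 2 units per transcript, estimated counts, which the authors left unnormalized, and TPM, which the authors scaled to 1000000 per library. Salmon and mm10 are named per the submitters' processing notes. Sailfish appears in file names, so the tool is unsure, and its version was not found in the labels.

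Of 136288 transcripts, 136176 were matched to GENCODE M21 (GRCm38), holding at least 99.963% of counts per library. Sums over transcripts gave 53458 genes and were rounded. edgeR 4.0.16 in R 4.3.3 tested 24133 genes and 66598 transcripts that passed filterByExpr (minimum count 10, minimum total 15) with the quasi-likelihood test, TMM factors, 1 fit over the 9 libraries and Benjamini-Hochberg adjustment at 0.05. PanIN against Healthy and Tumor against Healthy share the Healthy libraries. The common biological coefficient of variation was 56.5%. On simulated counts of 24133 genes, the test recovered 16.4% of 2-fold and 74.6% of 4-fold changes in Tumor against Healthy, and 4.48% and 64.2% in PanIN against Healthy. Each rate rests on 67 changed genes. The simulation drew each gene by itself and held no shift of a whole library. The p-values of transcripts leave out the uncertainty of splitting reads between transcripts.

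The members and gene lists were chosen with earlier results of these data known. The rule named all 7 genes, their transcripts with at least 10% of the gene in a stage, the 3 most alike genes per member, and up to 3 genes with the smallest p per list and comparison beside Irf4, Relb, Zeb2, Tcf4, Klf4 and Cebpa. One gene that this rule names and one boundary sequence are not reported here. Alternatives used DESeq2 1.42.0, limma 3.58.1 on log2(TPM + 1) and log2(TPM + 0.1), RLE factors, other filters, only the 6 libraries compared, a term for the shared title code, and each library left out. Correlations used all 362880 pairings. Python 3.11.15 and scipy 1.17.1 made the tables.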

Additional observations from a re-analysis of the deposited data

How the results depend on the processing

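Of the 21 fold changes of the 7 genes, 15 kept their sign under all 18 alternatives. The 21 reversals among 378 values all belonged to Irf8, Nfil3 and Spi1. For PanIN against Healthy, Irf8 lay between -0.23 and 0.66 when single libraries were left out (-0.09, -0.23 and -0.14 without Healthy 1, Healthy 3 and PanIN 3). In the same comparison Nfil3 was 0.26 and 0.34 on log2(TPM + 1) and log2(TPM + 0.1), 0.04 with a title code term, 0.01 without retained-intron transcripts, and 0.27 and 0.13 without Healthy 1 and PanIN 2, and Spi1 was 0.33 on both TPM scales and lay between -0.29 and 0.31 with 1 library left out (0.31 without Healthy 2, 0.00 without PanIN 2). For Tumor against Healthy, Irf8 was 0.01 on both TPM scales and lay between -0.39 and 0.50 with 1 library left out (0.50 without Healthy 2, 0.07 without Tumor 1). For Tumor against PanIN, Irf8 lay between -0.37 and 0.03 with 1 library left out (0.03 without PanIN 3, 0.02 without Tumor 1), and Spi1 was -0.17 on both TPM scales. The cause of these shifts was not tested.

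The number of the 7 genes called was 1 by DESeq2, 1 with no filter on low counts, and 0 to 2 with 1 library left out. On their transcripts DESeq2 made 5 calls over the comparisons, on 3 transcripts. Genes called in PanIN against Healthy were 186 by DESeq2, 123 with no filter, 3 and 4 on log2(TPM + 0.1) and log2(TPM + 1), and 0 to 6 with 1 library left out. In Tumor against Healthy they were 1496 and 1041, 3 with at least 50 counts in 3 libraries, 9 on both TPM scales, 8 in the 6 libraries alone, 9 with a title code term, and 2 to 2177 with 1 library left out (2177 without Healthy 2, 42 without Healthy 1). In Tumor against PanIN they were 30 and 33, 1 with at least 50 counts, 0 in the 6 libraries alone, 1 with a title code term, and 1 to 7 with 1 library left out. The joint test called 855 with no filter, 3 with a title code term, and 0 to 1360 with 1 library left out (1360 without Healthy 2). No paired analysis was possible because the labels carry no replicate numbers and the stages share no more than 1 title code, so the fits with a term for that code stand in its place. On the simulated counts, with 3 libraries a stage and no shift of a whole library, most 2-fold changes were missed.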
